A study of Mus musculus with 9 samples.

Results

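A set of 10 genes that encode components of the basement membrane was followed across 3 subpopulations of activated hepatic stellate cells (aHSCs), the cells that lay down scar in the injured liver. They were Col4a1, Col4a2, Lama4, Lama5, Lamc1, Nid1, Nid2, Hspg2, Col15a1 and Col18a1, 10 of the 30869 gene symbols on the array. Every probe that carried the symbol of 1 of these genes was taken, which gave 20 probes, and all 10 genes had at least 1 probe that passed the filter on dim probes (15 tested probes in all). Transcript levels came from Illumina MouseWG-6 v2.0 Expression BeadChips, in which each gene is read by beads that carry a probe of 50 bases, with 1 array per sample and 3 arrays per group.

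All cells came from WT1GFP/+ mice, in which a green fluorescent protein (GFP) reporter is knocked in at the locus of the transcription factor WT1. For the in vivo groups, male mice aged 8 to 12 weeks received carbon tetrachloride, a hepatotoxin, by injection for 8 weeks. The dose was 0.25 µl per g with 2 injections per week, and livers were taken 1 day after the last dose. GFP-high cells (here WT1-high; replicates 1, 8 and 29) and GFP-low cells (WT1-intermediate; replicates 1, 8 and 30) were sorted from the buoyant cell fraction of these fibrotic livers. GFP-negative cells (WT1-negative; replicates 3, 11 and 14) were sorted after stellate cells of uninjured mice had been grown on plastic for 7 days, which activates them. Mice of either sex served for cultures, and the age of these donors was not given in the sources used here. GFP status therefore coincides with the route of activation, and the effects of WT1 status and of culture cannot be told apart in either comparison with WT1-negative cells. The 6 in vivo arrays came from 3 animals.

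The basement membrane is a thin sheet of matrix on which epithelial, endothelial and mesothelial cells rest. Laminins, heterotrimers of an alpha, a beta and a gamma chain, polymerise at the cell surface, and type IV collagen forms a second, covalently linked network. Nidogens and the heparan sulphate proteoglycan perlecan (Hspg2) bind both networks, and the multiplexins, collagens XV and XVIII, lie at the border with the interstitial matrix. The normal hepatic sinusoid has little organised basement membrane, and in fibrosis such material is laid down in the space of Disse.

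The arrays differed in brightness. Mean signal ranged from 231 to 289 on WT1-high arrays, from 147 to 221 on WT1-intermediate arrays and from 246 to 256 on WT1-negative arrays, and 17253 to 19774 probes stood above the negative controls on an array. The libraries also differed in markers of other cell types. These are given as the summed intensity of each list's brightest tested probes, after background correction and quantile normalisation of the arrays. The 10 mesothelial markers, all tested, summed to 37801 to 42258 in WT1-high, 21658 to 29776 in WT1-intermediate and 218 to 312 in WT1-negative samples, and 5 of them were detected on no WT1-negative array. The 12 macrophage markers, all tested, summed to 2532 to 3552, 8309 to 12941 and 30331 to 35686 in the same order, and the 15 endothelial markers, all tested, to 1647 to 2115, 2834 to 3151 and 2069 to 2866. Of the 12 stellate cell markers, Vim, Acta2, Des, Pdgfrb and Reln were detected on every array, whereas Gfap and Rgs5 were detected on none. Of 8 hepatocyte markers, 5 were tested, and against WT1-negative cells all 5 were called higher in WT1-high cells and 4 of them in WT1-intermediate cells (summed level 303 to 1944, 418 to 1460 and 21.04 to 123 in the order of groups used above), whereas Alb, Fgb and Tat were detected on no array. Of 4 tested cholangiocyte markers, 3 were called higher and 1 lower in WT1-high and 1 was called higher in WT1-intermediate cells, led by Krt7 (4.75 and 4.05 on the log2 scale), and Epcam was detected on no array. Of 4 tested smooth muscle markers, 1 was called higher and 2 lower than in WT1-negative cells in each in vivo group. Actg2 differed by -4.32 and -3.15, whereas Smtn was higher in WT1-high (0.69) and Myh11 in WT1-intermediate cells (0.69). Cnn1 was detected on no array. Over all tested probes, 26.5% were called higher and 33.1% lower in WT1-high than in WT1-negative cells. For WT1-intermediate cells these shares were 24.4% and 33.6%. The part of these other cell types in the results that follow was not tested.

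Probe sequences are given for 4 of the genes, since probes of Hspg2, Nid1 and Col18a1 disagreed in size or direction and Lama5 rests on a single probe. The first 30 of the 50 bases of each probe are shown as deposited. The capitals in the Hspg2 probe mark 18 bases that are also the last 18 bases of probe ILMN_2520249, so that these probes target overlapping sequence. The longest stretch shared by the 2 Nid1 probes was 5 bases, and by the 2 Col18a1 probes 7 bases.
Hspg2 ILMN_2685329: ATAACCCTGCCCATCTGGgagcctgaggac
Nid1 ILMN_2814005: ccccaaccctatctcctacctccacctcga
Nid1 ILMN_2560756: aggccagcttggtctccatagcgagttcca
Col18a1 ILMN_2735184: gggacaatccagtgggtctggttctgtgac
Col18a1 ILMN_2937542: cctgccaggggaggttcccaagctcagtaa
Lama5 ILMN_2640248: ccgtttgccagagagcttggctggttctcc

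The arrays were made to compare aHSC subpopulations that differ in WT1. Against WT1-negative cells, WT1-high cells had higher transcript levels of 4 of the 10 genes (Lama5, Lamc1, Hspg2 and Col18a1) and a lower level of 1 (Nid1), by the brightest tested probe of each gene and limma's test at an adjusted p under 0.05. WT1-intermediate cells had higher levels of the same 4 genes and a lower level of Col4a2. Between WT1-high and WT1-intermediate cells, Nid1 alone passed this test, which was fitted without regard to animal, and was lower in WT1-high. That call was lost in 7 of the 9 fits that left out 1 array. With the animal as a fixed block (29 and 30 as 1 animal), Col18a1 (adjusted p = 0.0204) and Nid2 (adjusted p = 0.0283) were also called, both higher in WT1-high. In that comparison 2 members (Col18a1, higher, and Nid1) had an unadjusted p under 0.05, beside 3545 of all 20573 tested probes. Among all 20573 probes tested, 26.5% were called higher and 33.1% lower in WT1-high against WT1-negative cells, 24.4% higher and 33.6% lower in WT1-intermediate against WT1-negative cells, and 0.904% higher and 2.64% lower in WT1-high against WT1-intermediate cells. The median log2 difference of the 10 genes was 0.48, 0.37 and 0.19 in these 3 comparisons, beside -0.10, -0.13 and 0.05 over all tested probes. Both comparisons with WT1-negative cells use the same 3 WT1-negative arrays. In such pooled cells, a lower share of an expressing cell type and less RNA per cell cannot be told apart.

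**Figure D1:**
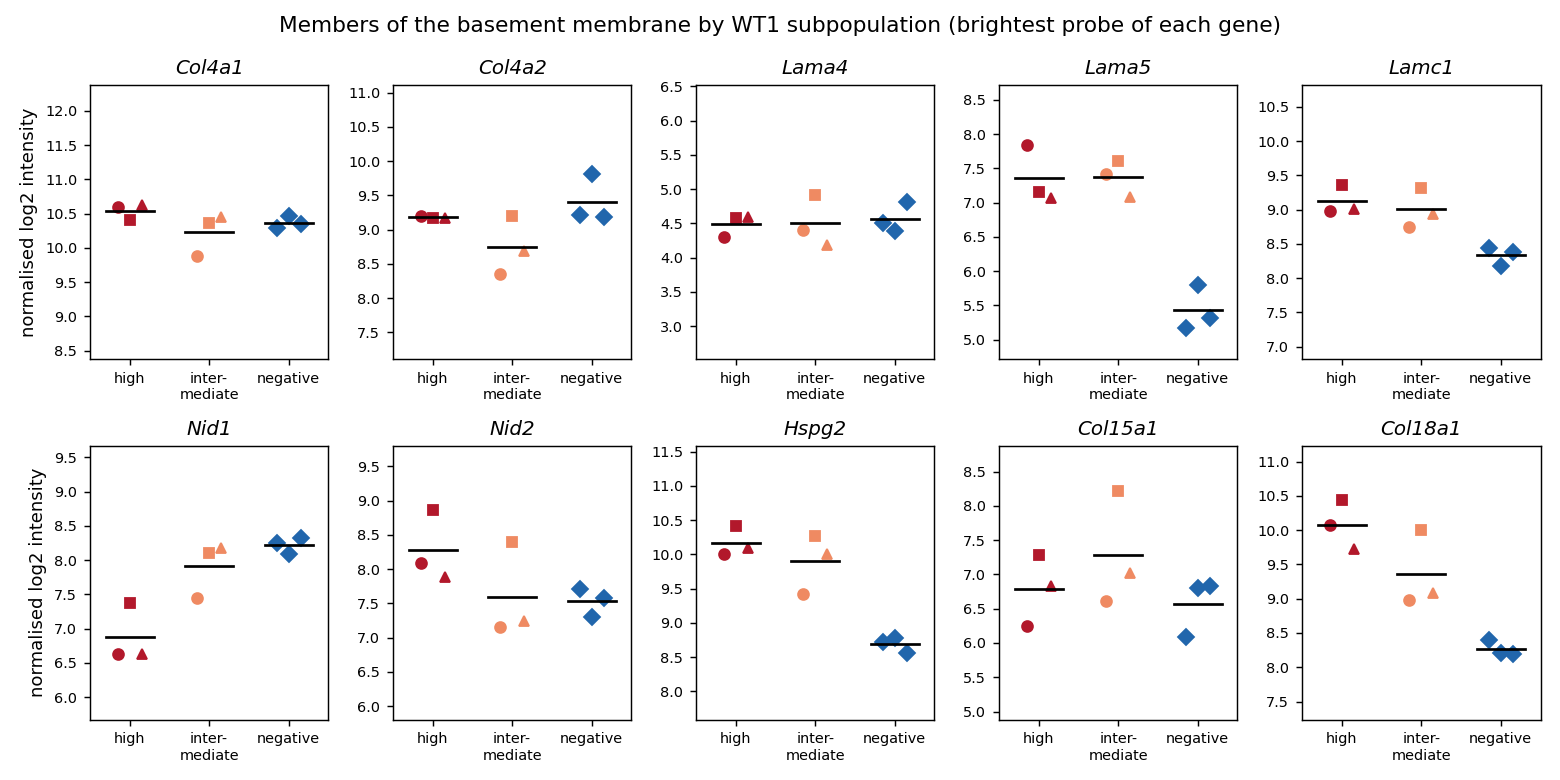
Normalised log2 intensity (y axis) of the brightest tested probe of each of the 10 genes in every array, by subpopulation (x axis); each panel spans the same number of log2 units, horizontal lines are group means, circles, squares and triangles mark in vivo replicates 1, 8 and 29 or 30, and diamonds mark WT1-negative arrays. The 6 in vivo arrays lie above all 3 WT1-negative arrays for Lama5, Lamc1, Hspg2 and Col18a1, and the 3 WT1-high arrays lie below all other arrays for Nid1. How many of all tested probes separate in these ways was not counted. Of the 20573, 12258 were called between WT1-high and WT1-negative and 11935 between WT1-intermediate and WT1-negative cells.

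Col4a1 and Col4a2 encode the alpha1 and alpha2 chains of the most widespread type IV collagen, which assemble together as 1 heterotrimer. Col4a1 (probe ILMN_2621643, chromosome 8) read 10.59, 10.40 and 10.63 on the WT1-high arrays, 9.88, 10.36 and 10.45 on the WT1-intermediate arrays and 10.29, 10.46 and 10.34 on the WT1-negative arrays, as normalised log2 intensity. The 3 groups overlapped, and no comparison was called. WT1-high exceeded WT1-negative by 0.18 ± 0.17 (SE, adjusted p = 0.388), and the 95% interval of the difference between WT1-high and WT1-intermediate ran from -0.06 to 0.69. Col4a2 (ILMN_2822579, chromosome 8) read 9.20, 9.17 and 9.17 in WT1-high, 8.35, 9.20 and 8.69 in WT1-intermediate and 9.22, 9.81 and 9.19 in WT1-negative cells. The WT1-intermediate values were the most spread, and replicate 8 lay within the range of the WT1-negative arrays. Col4a2 fell below the WT1-negative level in WT1-intermediate cells, with a difference of -0.66 ± 0.23 on the log2 scale (1.58-fold lower, adjusted p = 0.0281). This call was lost without WT1-intermediate replicate 1 (a difference of -0.46, adjusted p = 0.109), WT1-intermediate replicate 30 (-0.63, 0.0673) or WT1-negative replicate 11 (-0.46, 0.117).

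The genes for these chains lie head to head. In RefSeq (GRCm38.p6), the annotated starts used in the promoter table point outwards and overlap by 22 bases at chr8:11312805-11312826 (plus strand, the strand of Col4a2). The stretch is shown because these genes are known to share a bidirectional promoter, with the GC box (GGGCGG) in capitals:
Col4a1 and Col4a2: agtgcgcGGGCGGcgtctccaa
The log2 ratio of Col4a1 to Col4a2 on each array was compared between groups by an exact two-sided permutation test, whose smallest possible p is 0.1 with 3 arrays against 3. The ratio was 0.40 higher in WT1-high than in WT1-negative cells (exact p = 0.1, adjusted p = 0.171 over 12 such tests), 0.52 higher in WT1-intermediate against WT1-negative cells (exact p = 0.2), and -0.12 for WT1-high against WT1-intermediate cells (exact p = 0.6). The 3 genes with a profile over the 9 arrays nearest to that of Col4a1 were Ano10, Lrrc51 and Zkscan5, at a root mean square log2 difference of 0.096, 0.096 and 0.098. Among 20572 other probes, Col4a2 ranked 4413 by this distance, which made it the nearest of the other 9 genes.

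The laminin genes differed from each other. Lama5, the alpha chain of the laminins found under most mature epithelia and endothelia, stood 3.81-fold above the WT1-negative level in WT1-high and 3.84-fold above it in WT1-intermediate cells. Its probe (ILMN_2640248) read 7.84, 7.16 and 7.07 in WT1-high, 7.42, 7.61 and 7.08 in WT1-intermediate and 5.16, 5.80 and 5.32 in WT1-negative cells. All 6 in vivo arrays lay above the WT1-negative arrays, and both in vivo groups overlapped. The log2 differences from WT1-negative cells were 1.93 ± 0.24 for WT1-high (SE, adjusted p = 4.35e-05) and 1.94 ± 0.24 for WT1-intermediate (adjusted p = 4.79e-05). WT1-high and WT1-intermediate differed by -0.01, with a 95% interval from -0.55 to 0.52.

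Lamc1 encodes the gamma1 chain, a subunit of most laminins. ILMN_2774596 read 8.99, 9.37 and 9.02 in WT1-high, 8.75, 9.32 and 8.94 in WT1-intermediate and 8.45, 8.18 and 8.38 in WT1-negative cells. The in vivo arrays lay above all WT1-negative arrays. The differences were 0.79 ± 0.18 for WT1-high (1.72-fold, adjusted p = 0.00318) and 0.67 ± 0.18 for WT1-intermediate (1.59-fold, adjusted p = 0.00845). Its other probe, ILMN_2974798 (chromosome 1), read 8.65, 9.17 and 8.70, then 8.18, 8.97 and 8.38, then 8.08, 7.66 and 8.02 in the same order of groups, again with every in vivo array above the WT1-negative arrays. It gave 0.92 ± 0.23 (adjusted p = 0.00475) and 0.59 ± 0.23 (adjusted p = 0.0433). The second of these was called in only 4 of the 9 fits that left out 1 array, with differences from 0.36 to 0.76. Without WT1-intermediate replicate 8 it was 0.36 (adjusted p = 0.169), and it also missed the threshold without WT1-intermediate replicate 30 or any of the WT1-negative replicates 3, 11 and 14. It was lost as well with no background correction (adjusted p = 0.0603), an offset of 50 (adjusted p = 0.0517) and no filter (adjusted p = 0.109). Under median scaling neither probe was called in either comparison with WT1-negative cells.

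Lama4 encodes the alpha chain of laminins of vessels and mesenchyme, and was near background throughout. Of its 5 probes, 4 were detected on no array, and ILMN_2816565 (chromosome 10) was detected on 1 of 3 arrays in each group. That probe read 4.30, 4.58 and 4.59 in WT1-high, 4.41, 4.92 and 4.19 in WT1-intermediate and 4.50, 4.39 and 4.81 in WT1-negative cells. All groups overlapped, and the differences were -0.08, -0.06 and -0.02 (adjusted p = 0.758, 0.807 and 0.981). The 95% interval of the difference between WT1-high and WT1-negative ran from -0.52 to 0.37, and at this brightness a fall in Lama4 could not be read. The log2 ratio of Lama4 to Lama5 was lower in both in vivo groups than in WT1-negative cells (differences of -2.01 and -2.004, exact p = 0.1 each, the smallest possible), and with Lama4 near background these values rest on Lama5. The genes with profiles nearest to Lama5 were Slco2a1, Pacsin1 and Plekhg5 (root mean square difference 0.19, 0.22 and 0.22). Of the other members, Hspg2 (rank 985) and Col18a1 (rank 1398) lay nearest to Lama5.

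Nidogens are the links between the laminin and type IV collagen networks. Nid1 was the single member that passed the test between the in vivo groups in the fit without an animal block. Its brightest probe, ILMN_2814005 (chromosome 13), read 6.63, 7.37 and 6.64 in WT1-high, 7.45, 8.10 and 8.18 in WT1-intermediate and 8.26, 8.09 and 8.32 in WT1-negative cells. Each WT1-high array lay below every other array, although WT1-high replicate 8 and WT1-intermediate replicate 1 differed by under 0.1 log2 units. WT1-high cells had 2.04-fold less than WT1-intermediate cells (log2 difference -1.03 ± 0.24, adjusted p = 0.0409) and 2.53-fold less than WT1-negative cells (-1.34 ± 0.24, adjusted p = 0.000595). WT1-intermediate and WT1-negative cells differed by -0.31 (adjusted p = 0.285).

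The second probe assigned to Nid1, ILMN_2560756, was dimmer and gave a different order of groups. By eye its sequence resembles the B1 family of short interspersed repeats, which occur in many transcripts. This was not tested against a repeat library, so whether the probe reads Nid1 is uncertain. It read 5.07, 4.55 and 4.71 in WT1-high, 6.03, 5.47 and 6.07 in WT1-intermediate and 4.70, 4.50 and 4.67 in WT1-negative cells, so that the WT1-intermediate arrays stood above all others. WT1-high was again lower than WT1-intermediate (-1.08 ± 0.20, adjusted p = 0.0138), but WT1-intermediate was higher than WT1-negative (1.23 ± 0.20, adjusted p = 0.000287) and WT1-high did not pass the test against WT1-negative (0.15, adjusted p = 0.52). With that doubt, its values are not a second measurement of Nid1 and add no weight to those of ILMN_2814005. The deposited table assigned ILMN_2814005 to a RefSeq messenger RNA and ILMN_2560756 to a cDNA clone. Words of 12 bases from ILMN_2560756 occurred in 97 of 32851 RefSeq promoter windows of other genes, against 33 for ILMN_2814005 and 27 to 146 for the other 18 probes.

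The pairing of the in vivo arrays bears on Nid1. Within like-numbered pairs, WT1-high minus WT1-intermediate was -0.81 for replicate 1, -0.73 for replicate 8 and -1.54 for replicates 29 and 30 by ILMN_2814005, and -0.96, -0.92 and -1.36 by ILMN_2560756. All 3 values of each probe were below 0. The call for ILMN_2814005 was lost in 7 of the 9 fits that left out 1 array. Over all 9, the difference ranged from -1.28 to -0.90 and the adjusted p from 0.0234 to 0.126 (it was kept when WT1-high replicate 8 or WT1-intermediate replicate 1 was left out). That for ILMN_2560756 was lost without WT1-high replicate 8 (adjusted p = 0.0644) or without replicate 1 of WT1-intermediate (adjusted p = 0.0608). Macrophage markers also differed between these groups, with 7 of 12 called lower in WT1-high, among them C1qa, C1qb, C1qc, Cd68 and Adgre1. Of 15 endothelial markers, 3 were called lower and 0 higher in WT1-high. Of all tested probes, 2.64% were called lower and 0.904% higher there. An unadjusted p under 0.05 was found for 11 endothelial markers, all lower in WT1-high, beside 3545 of all 20573 tested probes in either direction. Of the stellate cell markers, Pdgfrb (-1.28, adjusted p = 0.00545) and Hgf (-1.16, adjusted p = 0.0411) were lower in WT1-high, and Des (1.40, adjusted p = 0.0453) and Acta2 (0.76, adjusted p = 0.0349) were higher. The part of these cells in the Nid1 difference was not tested. With any of the 4 forms of replicate block, the call of ILMN_2814005 held (adjusted p up to 0.0417). So did that of ILMN_2560756, whose target is uncertain (adjusted p up to 0.0214). Under median scaling, which moved the median of all tested probes from 0.05 to 0.45, neither call held (-0.35 and -0.69, adjusted p = 0.494 and 0.0503).

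Nid2 encodes the second nidogen. Its probe (ILMN_2961933, chromosome 14) read 8.09, 8.86 and 7.88 in WT1-high, 7.15, 8.40 and 7.25 in WT1-intermediate and 7.71, 7.31 and 7.58 in WT1-negative cells. WT1-high arrays lay above all WT1-negative arrays, whereas WT1-intermediate arrays spanned them, and replicate 8 was the highest of both in vivo groups. No comparison was called (0.75 ± 0.33 for WT1-high against WT1-negative, adjusted p = 0.0708). WT1-high exceeded WT1-intermediate within every pair, by 0.94, 0.46 and 0.63, and with the animal as a fixed block (29 and 30 taken as 1 animal) the difference of 0.68 was called (adjusted p = 0.0283, beside 0.327 without the block and 0.106 to 0.126 under the other 3 forms of block). The log2 ratio of Nid1 to Nid2 was lower in WT1-high cells than in WT1-negative (difference -2.09) and WT1-intermediate cells (difference -1.71), with no overlap of the groups in either case (exact p = 0.1 each, the smallest possible, adjusted p = 0.171). Between WT1-intermediate and WT1-negative cells it differed by -0.38 (exact p = 0.4).

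**Figure D2:**
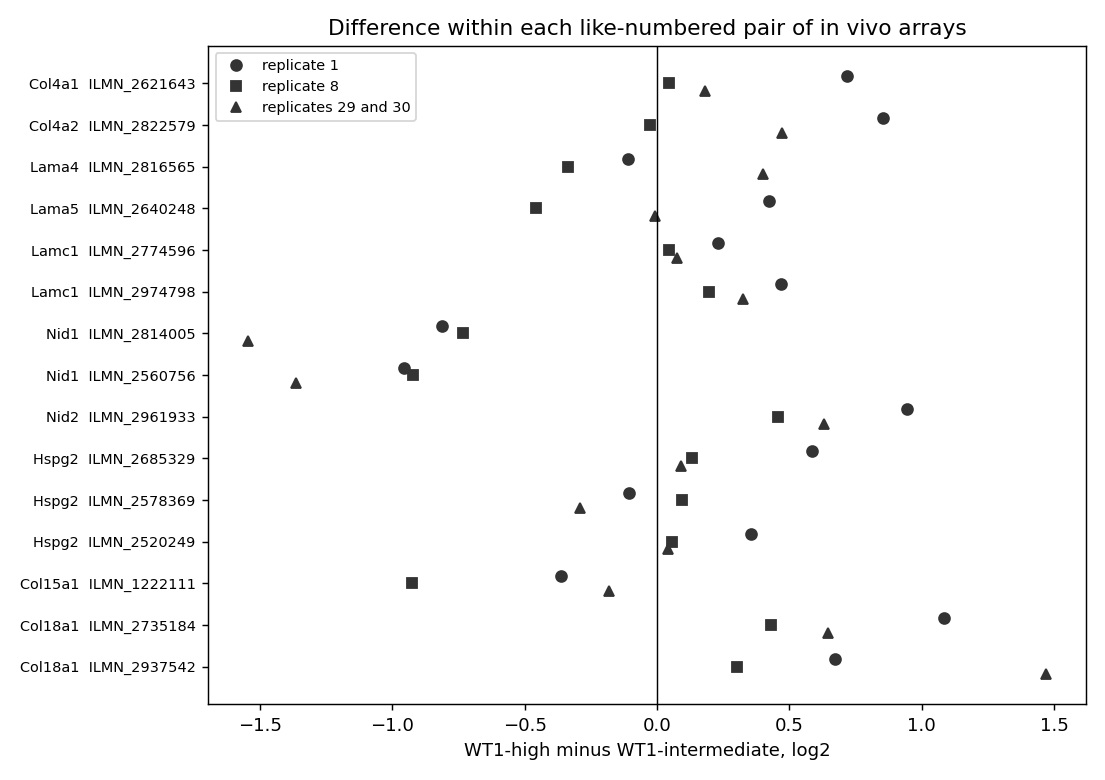
WT1-high minus WT1-intermediate log2 intensity (x axis) within each like-numbered pair of in vivo arrays, for every tested probe (y axis); circles are replicate 1, squares replicate 8 and triangles replicates 29 and 30. All 3 pairs were below 0 for Nid1 (ILMN_2814005), for Col15a1 and for ILMN_2560756, whose target is uncertain. All 3 were above 0 for Nid2, Col4a1, both Col18a1 probes, both Lamc1 probes and the 2 brighter Hspg2 probes. In limma's test without a block, only the 2 probes assigned to Nid1 were called between the in vivo groups. How many of all tested probes have 3 like signs was not counted.

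Hspg2 encodes perlecan, a large proteoglycan whose heparan sulphate chains hold growth factors. ILMN_2685329 (chromosome 4) read 10.004, 10.41 and 10.10 in WT1-high, 9.42, 10.27 and 10.01 in WT1-intermediate and 8.72, 8.78 and 8.56 in WT1-negative cells. Every in vivo array lay above every WT1-negative array, and the in vivo groups overlapped. The level was 2.80 times that of WT1-negative cells in WT1-high (1.48 ± 0.21, adjusted p = 0.000116) and 2.32 times in WT1-intermediate cells (1.21 ± 0.21, adjusted p = 0.000546). The overlapping probe ILMN_2520249 read 9.83, 10.38 and 10.05 in WT1-high, 9.47, 10.33 and 10.01 in WT1-intermediate and 7.89, 8.05 and 7.69 in WT1-negative cells. It gave larger differences, of 2.21 ± 0.23 (4.62-fold, adjusted p = 8.93e-06) and 2.06 ± 0.23 (4.16-fold, adjusted p = 1.88e-05). ILMN_2578369, assigned to a cDNA clone, read between 4.38 and 4.94 on all arrays and was not called (-0.01, 0.09 and -0.10). WT1-high and WT1-intermediate differed by 0.27 (ILMN_2685329, adjusted p = 0.563). Median scaling ended the call for ILMN_2685329 between WT1-intermediate and WT1-negative cells (0.46, adjusted p = 0.24). The nearest profiles were those of 1110013L07Rik, Tshz1 and Gpc4 (root mean square difference 0.087, 0.10 and 0.12), and Col18a1 (rank 469) and Lamc1 (rank 912) were the nearest members.

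Collagens XV and XVIII share their domain plan and carry at their C-terminal ends the fragments known as restin and endostatin. Relative to WT1-negative cells, Col18a1 was 3.51-fold higher in WT1-high cells and 2.13-fold in WT1-intermediate cells. Like the summed mesothelial markers given above, Lama5, Lamc1, Hspg2 and Col18a1 stood above their WT1-negative levels in both in vivo groups. The sums of the in vivo groups did not overlap (37801 to 42258 for WT1-high, 21658 to 29776 for WT1-intermediate). For these genes, in the order given, WT1-high minus WT1-intermediate was -0.01, 0.12, 0.27 and 0.72 log2 units, and none was called. The part of mesothelial cells in these differences was not tested. ILMN_2735184 (chromosome 10) read 10.07, 10.44 and 9.73 in WT1-high, 8.98, 10.004 and 9.08 in WT1-intermediate and 8.39, 8.21 and 8.20 in WT1-negative cells. The 6 in vivo arrays lay above the WT1-negative arrays, and the in vivo groups overlapped through WT1-intermediate replicate 8. The differences were 1.81 ± 0.26 (adjusted p = 0.000128) and 1.09 ± 0.26 (adjusted p = 0.00427), the second of which was not called under median scaling (0.34, adjusted p = 0.501).

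A second Col18a1 probe, ILMN_2937542, was dim and read 5.89, 6.47 and 5.95 in WT1-high, 5.21, 6.17 and 4.48 in WT1-intermediate and 4.44, 4.99 and 4.92 in WT1-negative cells. It was detected on all 3 WT1-high arrays and on 2 of 3 in each of the other groups. WT1-high was higher than WT1-negative (1.32 ± 0.35, adjusted p = 0.00725), but WT1-intermediate did not pass the test (0.51 ± 0.35, adjusted p = 0.236). ILMN_1225839 was detected on no array. Between the in vivo groups, ILMN_2735184 differed by 0.72 ± 0.26 (adjusted p = 0.182). The within-pair values were 1.09, 0.43 and 0.65, and with the animal as a fixed block (29 and 30 as 1 animal) the difference passed the test (adjusted p = 0.0204, beside 0.0523 to 0.0812 under the other 3 forms of block).

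Col15a1 (ILMN_1222111, chromosome 4) read 6.25, 7.29 and 6.83 in WT1-high, 6.61, 8.21 and 7.01 in WT1-intermediate and 6.08, 6.80 and 6.83 in WT1-negative cells. Replicate 8 was the highest array of both in vivo groups, all groups overlapped, and no comparison was called (0.22 ± 0.39, 0.71 ± 0.39 and -0.49 ± 0.39, adjusted p = 0.649, 0.14 and 0.569). The log2 ratio of Col15a1 to Col18a1 was -1.60 for WT1-high against WT1-negative cells and -1.21 for WT1-high against WT1-intermediate cells as a difference (exact p = 0.1 each, the smallest possible, adjusted p = 0.171), and -0.38 for WT1-intermediate against WT1-negative cells (exact p = 0.3).

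**Figure D3:**
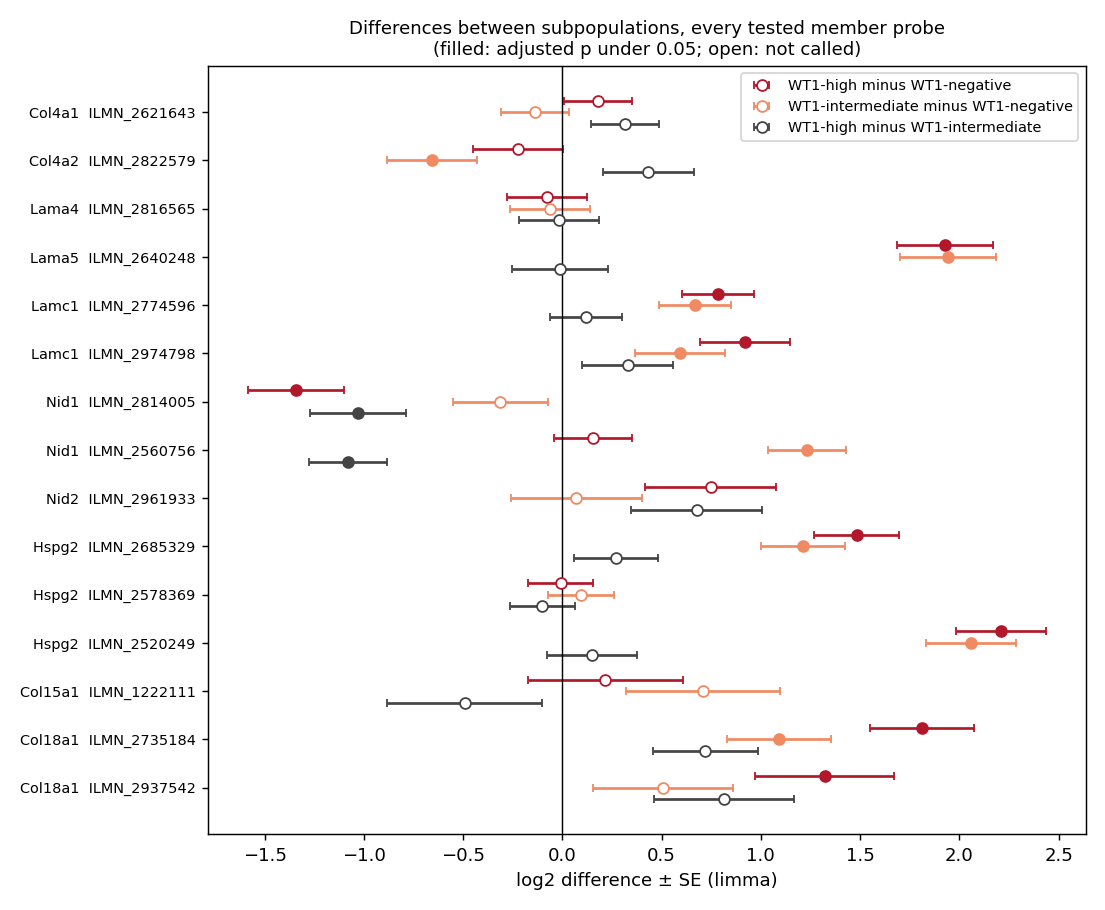
Log2 difference with SE from limma (x axis) for each of the 15 tested probes (y axis) in the 3 comparisons; filled points had an adjusted p under 0.05 over all tested probes. Lama5, Hspg2 and Col18a1 show the largest rises against WT1-negative cells by their brightest probes, and Nid1 (ILMN_2814005) is called lower in WT1-high between the in vivo groups. The target of the second Nid1 probe, ILMN_2560756, is uncertain.

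Sequence upstream of 2 of the genes that were higher in both in vivo groups is shown, trimmed where needed to bases outside annotated genes. RefSeq promoter windows (GRCm38.p6) were given for 7 of the 10 genes. GC boxes (GGGCGG, or CCGCCC on the other strand) and CCAAT boxes (CCAAT or ATTGG) are in capitals. Hspg2, chr4:137468553-137468750, plus strand, 198 bases, held 5 GC boxes and no CCAAT box. Col18a1 at its outer start, chr10:77166531-77166780, minus strand, 250 bases, held 3 GC boxes and 1 CCAAT box.
Hspg2 upstream: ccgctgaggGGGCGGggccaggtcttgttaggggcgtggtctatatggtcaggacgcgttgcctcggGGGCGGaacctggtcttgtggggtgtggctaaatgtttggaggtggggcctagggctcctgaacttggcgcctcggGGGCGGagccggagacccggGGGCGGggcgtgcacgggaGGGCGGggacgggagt
Col18a1 upstream: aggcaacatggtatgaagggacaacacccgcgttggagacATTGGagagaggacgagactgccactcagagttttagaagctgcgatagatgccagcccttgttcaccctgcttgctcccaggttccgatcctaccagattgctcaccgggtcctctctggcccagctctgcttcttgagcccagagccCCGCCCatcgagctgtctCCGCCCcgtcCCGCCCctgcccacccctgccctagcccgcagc
Of all 32851 windows of 250 upstream bases, 32.7% held a GC box, 33.8% a CCAAT box and 12.4% a TATA box (TATAAA or TTTATA). The window before the inner start of Col18a1 held none of the 3 motifs. A match is a description of letters only, and the probes do not tell which Col18a1 start was used.

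Other components of the basement membrane rose in part with these genes. Of 24 listed genes, 20 were tested, of which 10 were higher and 3 lower in WT1-high than in WT1-negative cells (median log2 difference 0.56). In WT1-intermediate cells, 8 were higher and 3 lower (median 0.37). Beside these counts, 26.5% of all tested probes were higher and 33.1% lower in WT1-high, and 24.4% and 33.6% in WT1-intermediate cells. Lamc3, a gamma chain of a rarer group of laminins, exceeded its WT1-negative level at least 20.7-fold (WT1-high) and at least 9.42-fold (WT1-intermediate), bounds set by the limit of detection because it was detected on no WT1-negative array (adjusted p = 2.36e-06 and 2.41e-05). Lamb2, a beta chain, was higher by 2.51 ± 0.21 and 2.61 ± 0.21 log2 units (adjusted p = 1.78e-06 and 1.65e-06). None of the 20 passed limma's test between the in vivo groups. There, 6 had an unadjusted p under 0.05, beside 3545 of all 20573 tested probes. All 6 were higher in WT1-high, among them Col4a5 and Lamc3.

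Receptors for the basement membrane were mostly higher in vivo. Of 13 tested receptor genes, 9 were higher and 1 lower in WT1-high than in WT1-negative cells (median 1.59). In WT1-intermediate cells, 8 were higher and 2 lower (median 1.46). All tested probes gave 26.5% higher and 33.1% lower in WT1-high, and 24.4% and 33.6% in WT1-intermediate cells. The genes called lower were Itga6 in both groups (-0.75 and -0.99) and Itgb1 in WT1-intermediate cells (-0.66). Itgb4, the beta chain of the hemidesmosomal laminin receptor, was higher by 4.23 ± 0.24 and 3.17 ± 0.24, and it was the only receptor called between the in vivo groups, higher in WT1-high by 1.06 ± 0.24 (adjusted p = 0.035). Ddr1, a collagen receptor kinase, was higher by 3.54 ± 0.20 and 3.17 ± 0.20, and Itga3, an alpha chain of laminin receptors, by 3.43 ± 0.31 and 2.96 ± 0.31. All 10 mesothelial markers were also called higher in both in vivo groups, and their part in these counts was not tested.

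Enzymes and chaperones of collagen assembly were mixed. Of 13 tested, 4 were higher and 5 lower in WT1-high than in WT1-negative cells, and 3 were higher and 4 lower in WT1-intermediate cells. These counts stand beside 26.5% of all tested probes higher and 33.1% lower in WT1-high, and 24.4% and 33.6% in WT1-intermediate cells. Serpinh1, the collagen chaperone HSP47, was higher in WT1-high by 1.13 ± 0.19. The prolyl hydroxylase subunit P4ha2 differed by -1.04 in WT1-high and by -0.98 in WT1-intermediate cells, the lysyl hydroxylase Plod1 differed by -0.98 and -0.77, and Mia3, a collagen export factor, by -0.82 and -0.96. Between the in vivo groups limma called 0 of them. An unadjusted p under 0.05 was found for 2 (Crtap, higher in WT1-high, and Colgalt1, lower), beside 3545 of all 20573 tested probes.

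Of 11 tested genes for proteases and their inhibitors, 5 were higher and 5 lower in WT1-high than in WT1-negative cells. In WT1-intermediate cells, 5 were higher and 4 lower. The shares of all tested probes were 26.5% higher and 33.1% lower, then 24.4% and 33.6%. The gelatinase Mmp2 was higher by 2.55 ± 0.24 and 3.19 ± 0.24, whereas the gelatinase Mmp9 differed by -3.50 ± 0.35 and -3.08 ± 0.35 and the heparanase Hpse by -2.92 ± 0.24 and -2.64 ± 0.24. Mmp3, stromelysin 1, was lower in WT1-high by the comparison with WT1-intermediate cells (difference -1.997 ± 0.30, adjusted p = 0.00482), the only gene of this list called there. For comparison, 7 of 8 fibrillar and type VI collagen genes were higher and 1 lower in WT1-high than in WT1-negative cells, and 6 were higher and 1 lower in WT1-intermediate cells, with medians of 2.32 and 2.38. Col3a1, a fibrillar collagen, was higher by 4.55 ± 0.37 and 4.36 ± 0.37. The type VI chains Col6a1 and Col6a2 were higher by 4.02 ± 0.32 and 3.52 ± 0.32, and by 3.79 ± 0.38 and 3.32 ± 0.38. The gene called lower was Col1a1, which differed by -1.40 ± 0.37 and -1.26 ± 0.37, whereas Col1a2 was higher by 2.69 ± 0.32 and 2.39 ± 0.32. Between the in vivo groups limma called 0 of the 8, and 0 had an unadjusted p under 0.05, beside 3545 of all 20573 tested probes.

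**Figure D4:**
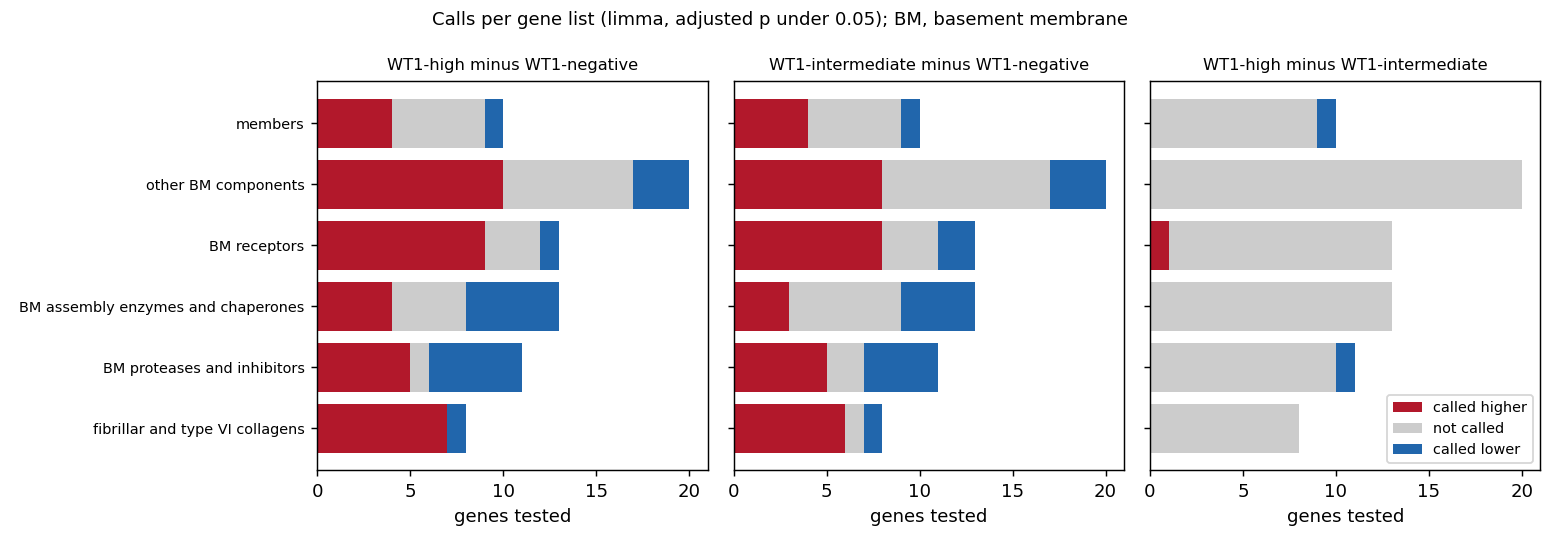
Number of tested genes (x axis) called higher, called lower or not called by limma in each gene list (y axis), for the 3 comparisons. Of the 10 members, 4 were called higher and 1 lower against WT1-negative cells by both in vivo groups, and 1 was called lower in WT1-high between the in vivo groups.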

How the data were processed

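The authors' deposited tables gave probe intensity per bead array from BeadStudio as raw linear values, with a detection p-value for each probe. In limma 3.58.1 (R 4.3.3), neqc took background from the negative control probes, quantile normalised all 9 arrays with all probes and added an offset of 16 before log2. The test took the 20573 of 45281 probes that at least 3 arrays detected (detection p under 0.05). A linear model of the 3 groups was fitted (6 residual and 5.19 prior degrees of freedom), and p-values are limma's moderated two-sided tests, adjusted by Benjamini-Hochberg over all tested probes, with a call at an adjusted p under 0.05. The study's methods describe replicates as separate animals or separate cell isolations. The number of arrays limits the precision. Tested member probes were read by 22 to 67 beads on each of the 8 arrays whose bead counts were used.

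The members were matched by symbol, and the brightest tested probe stood for a gene. Other genes are named where called between WT1-high and WT1-intermediate or among the 3 largest called differences of a list in a comparison, of which 1 is not reported here. Likeness of profiles (for Col4a1, Lama5 and Hspg2; Lama4 was too near background) is the root mean square difference of centred log2 values, and neighbours without an Entrez identifier were passed over. A 2-group ratio test was an exact permutation. The members and lists were chosen with earlier results of these data known. Symbols and chromosomes are those of the files, and promoter sequences are RefSeq's on GRCm38.p6.

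A WT1-intermediate column headed 29 was taken as the array labelled 30, the only one of its group left. The deviations of arrays from their group means correlated, across probes, by 0.35 for replicate 1, 0.34 for replicate 8 and 0.47 for 29 with 30, against -0.39 to 0.03 for other combinations, and the study states 3 animals, so these numbers were taken to pair the arrays. Alternatives covered scaling, background, offset, filter, groups in the fit, replicate blocks and leaving out each array.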

Additional observations from a re-analysis of the deposited data

How the results depend on the processing

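For WT1-high against WT1-negative cells, the members called higher numbered 3 to 5 over the alternatives run (4 as reported) and those called lower 1 in each. For WT1-intermediate against WT1-negative cells, 1 member was higher and 3 were lower under median scaling (4 and 1 as reported), 0 were lower with no filter and with a fit of only the 2 groups compared, and leaving out 1 array gave 0 to 1 lower. For WT1-high against WT1-intermediate cells, where 0 were higher and 1 lower, median scaling gave 2 higher and 0 lower, and 0 were lower with no background correction, an offset of 50, no filter and a fit of only the 2 groups, while leaving out 1 array gave 0 to 1 higher and 0 to 1 lower. Median scaling moved the median of all tested probes from 0.05 to 0.45 in this comparison and from -0.13 to -0.44 in WT1-intermediate against WT1-negative cells, so its values are read relative to those shifts. The cause of these differences was not tested.

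The pairing raised the calls over all probes between the in vivo groups from 730 to 1752 and 1796 with the animal as a random replicate block (29 and 30 apart or as 1 animal), 817 with a fixed block and 1656 with a fixed block and 29 with 30 as 1 animal. The last gave 2 members higher, Col18a1 and Nid2, and with the random block (29 and 30 as 1 animal) Nid2 passed against WT1-negative cells (0.75, adjusted p = 0.0483). The block changed no other member call. A slide block was not run, since the headers name no slide.

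Signs turned in the following cases, given as log2 differences. WT1-high against WT1-negative: Lama4 was 0.014 by cyclic loess and -0.16 to 0.019 with 1 array left out, Hspg2 ILMN_2578369 was 0.030 by median scaling, 0.099 by loess, 0.00030 with no background correction, 0.024 with the random block and -0.11 to 0.077 with 1 array left out, and Col15a1 was -0.031 to 0.49 with 1 array left out. WT1-intermediate against WT1-negative: median scaling gave -0.082 and -0.16 for the Lamc1 probes ILMN_2774596 and ILMN_2974798, -0.62 for Nid2 and -0.0092 for Hspg2 ILMN_2578369, and loess gave 0.091 for Lama4. Leaving out 1 array there gave -0.25 to 0.038 for Col4a1, -0.15 to 0.10 for Lama4, -0.33 to 0.29 for Nid2 and -0.033 to 0.20 for Hspg2 ILMN_2578369. WT1-high against WT1-intermediate: median scaling gave 0.14 for Col15a1, 0.63 for Lama5 and 0.040 for Hspg2 ILMN_2578369, loess gave 0.025 for Lama5, and no background correction gave 0.011 for Lama4 and 0.014 for the ratio of Lama4 to Lama5. Leaving out 1 array there gave ranges that spanned 0 for Lama4 (-0.18 to 0.081), Lama5 (-0.26 to 0.13), Lamc1 ILMN_2774596 (-0.0065 to 0.27), Hspg2 ILMN_2578369 (-0.21 to 0.025), Hspg2 ILMN_2520249 (-0.082 to 0.35) and the log2 ratios of Col4a1 to Col4a2 (-0.28 to 0.017) and Lama4 to Lama5 (-0.20 to 0.34).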
